A study of Mus musculus with 24 samples.

Results

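IL-6, TNF and IL-10 are cytokines of the inflammatory response, and the genes described here are those of the 3 ligands and of their 6 receptor chains. The members were chosen by symbol, as Il6, Tnf, Il10, Il6ra, Il6st, Tnfrsf1a, Tnfrsf1b, Il10ra and Il10rb, and they are 9 of the 32451 genes or transcripts that the array's probes measured. IL-6 binds the chain encoded by Il6ra, and the complex then engages gp130, encoded by Il6st, which passes the signal to JAK kinases and STAT3. TNF acts through TNFR1 and TNFR2, encoded by Tnfrsf1a and Tnfrsf1b, and myeloid cells are a main source of it in inflamed tissue. IL-10 restrains the production of inflammatory cytokines by myeloid cells, and its receptor joins the ligand-binding chain IL10RA to IL10RB, a chain that several related cytokines share.

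The study asked how gene expression in CD11b+ myeloid cells of the spleen and the bone marrow differs after myocardial infarction (MI) and with the loss of histidine decarboxylase or STAT6. Cells from WT, HDC-KO and STAT6-KO mice, all male and 10 weeks old on a Balb/C background, were taken from controls and at 1, 2 and 4 weeks after MI. HDC-KO mice lack the enzyme that makes histamine, and STAT6-KO mice lack the transcription factor that acts downstream of IL-4 and IL-13. Each condition was measured once, on 1 one-colour array of CD11b+ cells pooled from 5 mice, so no condition has a spread of its own. Complete data were used from 22 of 24 arrays, 11 of each tissue, and the 2 incomplete ones, STAT6-KO bone marrow at 1 week and the HDC-KO spleen control, were left out. Each of the 6 scans held 1 genotype and tissue, and the array position followed the time point. Within either tissue, genotype and scan cannot be told apart, and neither can time and position. Spleen and bone marrow were on different scans, so tissue and scan cannot be told apart either. All pairs of a genotype share the same scans, so they are not independent of one another.

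The labels were first set against the array values. A level here is the log2 signal minus the 75th percentile (P75) of that array, and that percentile was between 928 and 2461 signal units. Hdc was between 4.32 and 4.83 in the 4 WT spleen arrays and between 1.67 and 1.93 in the 3 HDC-KO spleen arrays. In bone marrow Hdc was between 4.75 and 5.51 in WT and between 2.32 and 2.78 in HDC-KO, so HDC-KO lay far below WT in both tissues with no overlap (differences -2.73 and -2.63, limma adjusted p = 0.00596 and 0.00401). Stat6 was between 2.38 and 2.90 in WT spleen and between 1.94 and 2.44 in STAT6-KO spleen, where the groups overlapped (-0.50, adjusted p = 0.118). In bone marrow it was between 2.78 and 3.70 in WT and between 1.76 and 2.34 in STAT6-KO, with no overlap (-0.93, adjusted p = 0.0473). The Stat6 probe was still read in the STAT6-KO arrays, and its place relative to the deleted part of the gene is not given in the sources used here, so it is a limited check of that label. Itgam, which encodes CD11b, was well above background on all 22 arrays and lower in spleen than in bone marrow (-1.47, adjusted p = 5.42e-06).

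The first comparison set spleen against bone marrow, beginning with the ligands. Il6, which encodes the cytokine that drives the acute-phase response, was between -4.23 and -0.88 in the 11 spleen arrays, with a median of -3.41. In the 11 bone marrow arrays it was between -5.73 and -2.18, with a median of -4.07. The tissues overlapped widely, and HDC-KO MI 4 weeks was the highest array of both the spleen and the bone marrow. WT bone marrow MI 1 week, the lowest array, was the only one of 22 on which Il6 was not well above background. Over the 10 genotype and time pairs measured in both tissues, Il6 was higher in spleen in 9, by a mean of 0.92 (SE 0.18, 1.89-fold, adjusted p = 0.000953). That call was lost without the pairing (adjusted p = 0.0827) and with the scan as a random block in its place (0.149). Over 19 refits, of which 17 were called, the difference ranged from 0.46 to 1.05.

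Tnf, the gene of the cytokine that activates endothelium and phagocytes, was between -2.44 and -0.13 in spleen, with a median of -1.36. In bone marrow it was between -0.71 and 0.59, with a median of 0.13. Most bone marrow arrays lay above most spleen arrays, although the ranges overlapped: WT spleen MI 1 week, MI 4 weeks and STAT6-KO spleen MI 4 weeks reached the lower bone marrow values. Spleen was lower in 10 of 10 pairs, by a mean of -1.30 (SE 0.17, adjusted p = 5e-05). The Tnf probe was printed as 9 to 10 usable spots per array, with a median spot SD of 0.0618, which is the spread within an array and not that between samples.

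Il10, the gene of the cytokine that limits inflammatory activation, was between -5.91 and -3.32 in spleen, with a median of -5.13, and between -6.15 and -4.63 in bone marrow, with a median of -5.45. The tissues overlapped, and HDC-KO spleen MI 4 weeks stood highest, as it did for Il6. Spleen was higher in 6 of 10 pairs, with a mean difference of 0.34 that did not pass the test (SE 0.21, adjusted p = 0.182). Over 20 refits the difference ranged from 0.017 to 0.53, and it passed only with quantile normalization (0.53, adjusted p = 0.0251). Il10 gave dim spots: its median was 1.28 log2 units above the lowest signal counted as well above background, and the median SD among its spots was 0.301.

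**Figure D1:**
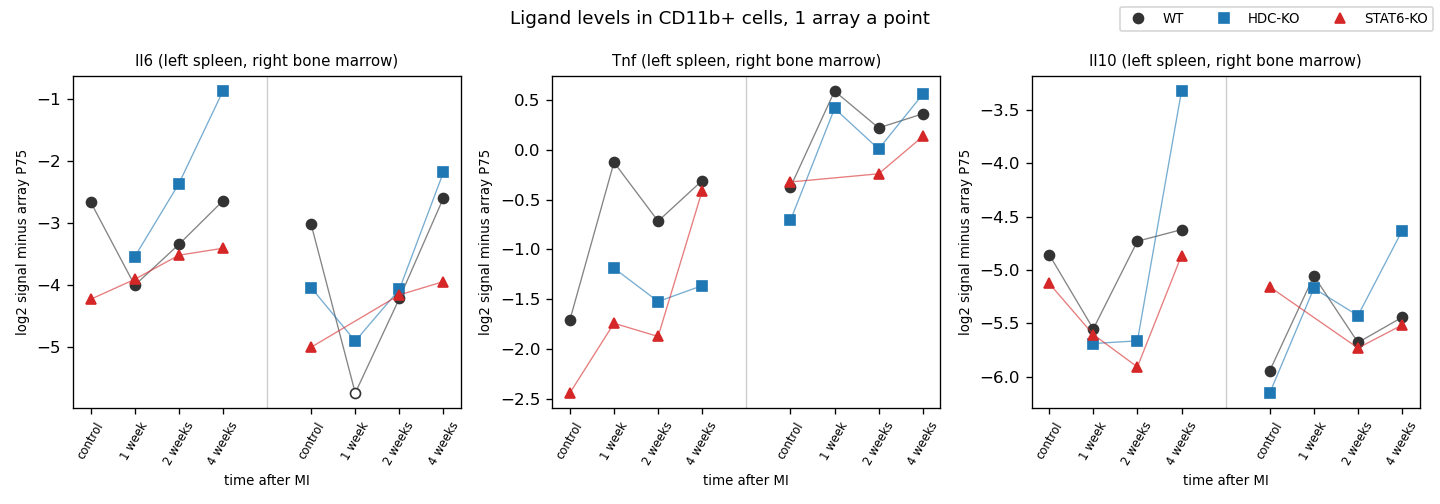
Levels of Il6, Tnf and Il10 (log2 signal minus the array's P75, 1 array a point) by time after MI, with spleen on the left and bone marrow on the right of each panel, WT as circles, HDC-KO as squares and STAT6-KO as triangles; lines join the arrays of 1 genotype and tissue, and an open symbol is a signal not well above background. Tnf was between -2.44 and -0.13 in spleen and between -0.71 and 0.59 in bone marrow, and in each line that has a control array Tnf was lowest in that control.

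Of the receptor genes, Il6ra encodes the chain that binds IL-6. It was between 4.07 and 4.97 in spleen, with a median of 4.52, and between 4.34 and 5.16 in bone marrow, with a median of 4.60. The tissues overlapped almost fully, and the difference of -0.14 did not pass the test (SE 0.11, adjusted p = 0.279).

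Il6st encodes gp130, the signalling chain shared by the IL-6 family. It was between -1.10 and 0.38 in spleen, with a median of -0.25, and between -3.22 and -1.24 in bone marrow, with a median of -1.94. Every spleen array was above every bone marrow array, although WT spleen MI 4 weeks (-1.10) and WT bone marrow MI 4 weeks (-1.24) were close. Spleen was higher in 10 of 10 pairs by a mean of 1.55 (SE 0.24, 2.92-fold, adjusted p = 0.00018). The smallest of the pair differences was 0.13, in WT MI 4 weeks.

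Tnfrsf1a encodes TNFR1, the widely expressed receptor with a death domain. It was between 4.62 and 5.19 in spleen, with a median of 5.00, and between 5.14 and 5.70 in bone marrow, with a median of 5.38. The ranges met at their ends, with STAT6-KO spleen MI 4 weeks and WT spleen MI 1 week above WT bone marrow MI 2 weeks. Spleen was lower in 10 of 10 pairs, by a mean of -0.43 (SE 0.092, adjusted p = 0.00205). Over 20 refits the difference ranged from -0.77 to -0.34 and was called in each. A second Tnfrsf1a probe gave a larger difference in the same direction (-1.12, SE 0.13, adjusted p = 1.54e-05). The other 8 members had 1 probe each.

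Tnfrsf1b encodes TNFR2, the receptor found mainly on leukocytes and endothelium. It was between 1.78 and 2.65 in spleen, with a median of 2.30, and between 0.09 and 1.21 in bone marrow, with a median of 0.75. The tissues were well separated, with no array of one inside the range of the other. Spleen was higher in 10 of 10 pairs by a mean of 1.65 (SE 0.15, 3.15-fold, adjusted p = 3.17e-06).

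Il10ra, the gene of the IL-10 binding chain, was between 0.99 and 2.07 in spleen, with a median of 1.71, and between -0.97 and 0.41 in bone marrow, with a median of -0.10. These groups did not overlap either. Spleen was higher in 10 of 10 pairs by a mean of 1.76 (SE 0.19, 3.39-fold, adjusted p = 1.31e-05). Il10rb, the gene of the shared chain, was between 1.42 and 2.45 in spleen, with a median of 1.85, and between 1.68 and 2.06 in bone marrow, with a median of 1.83. The bone marrow range lay inside the spleen range, and the difference was -0.01 (SE 0.12, adjusted p = 0.956).

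**Figure D2:**
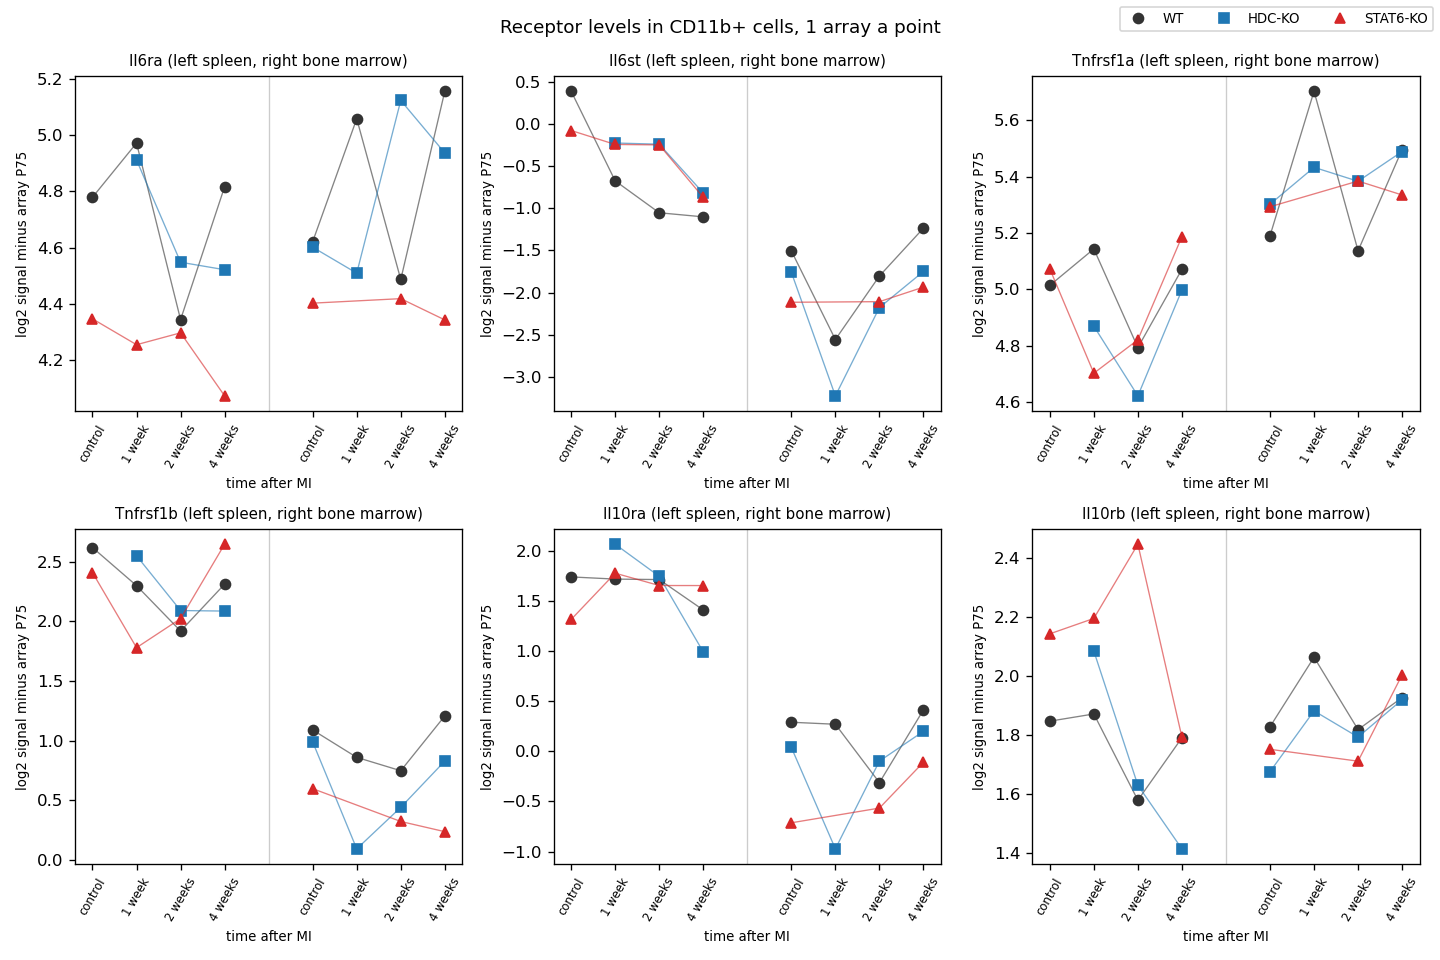
Levels of the 6 receptor genes (log2 signal minus the array's P75, 1 array a point) by time after MI, with spleen on the left and bone marrow on the right of each panel, WT as circles, HDC-KO as squares and STAT6-KO as triangles; each panel has its own scale. Il6st, Tnfrsf1b and Il10ra were higher in all 11 spleen arrays than in any of the 11 bone marrow arrays, whereas the Il6ra and Il10rb ranges overlapped.

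In all, 6 of the 9 members passed the test between the tissues, 4 higher in spleen and 2 lower, in a comparison where 54.5% of 27659 genes were called. The median difference of all genes was -0.17, and 22.4% of genes were called higher and 32.1% lower, so the share of members called is a feature of the whole comparison. Among the members, 3 of 9 had no overlap over the 22 arrays, against 13.2% of 27605 genes. Relative to the median gene the differences were 1.93 for Il10ra, 1.82 for Tnfrsf1b, 1.71 for Il6st, 1.09 for Il6, -0.26 for Tnfrsf1a and -1.13 for Tnf. The Tnfrsf1a value is that of the reported probe, and the second probe gave -1.12 before the median gene was taken off. With the scan as a random block, Il6st, Tnfrsf1b, Il10ra, Tnf and Tnfrsf1a passed, with adjusted p from 1.3e-07 to 0.00331.

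The cells of the 2 tissues also differed in their marker genes, and in pooled cells fewer cells of a type and less RNA per cell cannot be told apart. Summed levels are given on the linear scale in units of the array's P75, with the gene of the brightest probe in each tissue, which does not rank the transcripts, since probes differ. All 8 neutrophil granule markers were lower in spleen, with a sum of 190 to 353 there and 367 to 676 in bone marrow, and Camp was brightest in spleen and Ltf in bone marrow. Mature neutrophil markers were lower in spleen in 3 of 4 measured genes (30.1 to 99.8 against 96.8 to 162, Retnlg brightest). General myeloid markers, including Itgam, were lower in 4 of 5 (63.4 to 111 against 120 to 183, Csf3r brightest). The granulocyte markers thus had their lower values in spleen.

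Monocyte and macrophage markers were higher in spleen in 6 of 7 measured genes, with a sum of 92.4 to 178 against 44.1 to 73.5 and Csf1r brightest. Dendritic cell markers were higher in 4 of 6 (37.1 to 81.5 against 36.5 to 79.0, Siglech brightest), and Xcr1 was well above background on 11 spleen arrays and on 0 of 11 bone marrow arrays. Lymphocyte markers were higher in spleen for 5 of 6 B cell genes, with 1 lower (20.5 to 73.7 against 4.29 to 28.2, Cd79b brightest). T cell genes were higher in 4 of 6, with 1 lower (9.0 to 35.2 against 14.3 to 24.2, Lck brightest in spleen and Cd3d in bone marrow), and the spleen range of that sum spanned the bone marrow range. NK cell genes were higher in 4 of 5 (3.63 to 30.2 against 1.11 to 3.11, Gzma brightest).

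Plasma cell markers were higher in spleen in 2 of 4 genes (29.7 to 88.3 against 16.7 to 39.1, Jchain brightest in spleen and Xbp1 in bone marrow). Erythroid markers were higher in 2 of 4 (5.17 to 41.3 against 2.56 to 24.1, Hba-a1 brightest). Basophil and mast cell markers were lower in 4 of 4 (0.318 to 1.84 against 0.870 to 4.06, Mcpt8 brightest), and stromal and endothelial markers in 4 of 7 (0.901 to 3.94 against 3.63 to 16.0, Lepr brightest in spleen and Cxcl12 in bone marrow). The part of these marker differences in the results for the 9 members was not tested.

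The second comparison set arrays after MI against controls, within each tissue. Tnf in WT spleen was -1.71 in the control and -0.13, -0.72 and -0.31 at 1, 2 and 4 weeks. In STAT6-KO spleen it was -2.44 in the control and -1.74, -1.87 and -0.41 at the same times. The control was the lowest of its genotype in both. HDC-KO spleen had no control array to set beside its values of -1.19, -1.52 and -1.36.

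In bone marrow the Tnf values of WT were -0.38 in the control and 0.59, 0.22 and 0.36 at 1, 2 and 4 weeks. HDC-KO bone marrow gave -0.71 in the control and 0.41, 0.01 and 0.56. STAT6-KO bone marrow gave -0.32 in the control, -0.24 at 2 weeks and 0.13 at 4 weeks. Here too each control was the lowest array of its genotype, by as little as 0.08 in STAT6-KO at 2 weeks.

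Tnf was thus above the control of the same genotype and tissue on 14 of 14 arrays after MI, with differences from 0.08 to 2.03 and a median of 0.85. These 14 arrays share 5 control arrays, so the differences are not independent of one another. Of 27517 genes, 0.898% were above the control on every such array and 0.876% were below on every one. A fit of MI at any time against control over both tissues, chosen after these values had been seen, gave a Tnf difference of 0.91 (SE 0.21, adjusted p = 0.11). It did not pass the test, and limma called 0 of 9 members in that fit, where 0.0905% of genes were called, and 3 members had an unadjusted p under 0.05, as did 11.5% of all genes. The fits take the controls as shared by all time points, and a control array that is low for Tnf by itself cannot be told apart from a difference after MI.

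By time point limma called 0 of 9 members in each of the 6 comparisons. In spleen the background was 7.9% of 26472 genes called at 1 week, 2.25% at 2 weeks and 0% at 4 weeks, and 2 members had an unadjusted p under 0.05 at each time, against 27.4%, 23.7% and 8.7% of all genes. In bone marrow it was 0.148% of 27090 genes at 1 week, 0% at 2 weeks and 0% at 4 weeks, with 4, 1 and 2 members under an unadjusted p of 0.05, against 19.7%, 7.48% and 19.1% of all genes. HDC-KO spleen arrays entered the spleen fits without a control of their own.

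The Tnf estimates in spleen were 1.22 at 1 week (SE 0.34, adjusted p = 0.0687), 0.87 at 2 weeks (SE 0.34, adjusted p = 0.18) and 1.54 at 4 weeks (SE 0.34, adjusted p = 0.428). The median gene moved as well, by -0.16, -0.13 and 0.08, so relative to it the Tnf estimates were 1.38, 1.00 and 1.46. In bone marrow they were 0.92 at 1 week (SE 0.21, adjusted p = 0.111), 0.46 at 2 weeks (SE 0.18, adjusted p = 0.665) and 0.82 at 4 weeks (SE 0.18, adjusted p = 0.0933). All 6 estimates were positive, and none passed the test. With each array scaled to its median, Tnf at 1 week in spleen did pass (1.52, adjusted p = 0.0338), but the median of all genes moved by 0.30, as much as Tnf did. It also passed without the STAT6-KO arrays (1.54, adjusted p = 0.0212), where WT is the 1 control array left and is assumed to vary like the other groups, which supply the spread. In the other 8 of 10 refits it did not pass, and over the 10 it ranged from 0.98, without WT (adjusted p = 0.464), to 1.54.

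Il6st differed from Tnf in its side of the control in spleen. In WT spleen it was 0.38 in the control and -0.68, -1.05 and -1.10 at 1, 2 and 4 weeks, and in STAT6-KO spleen it was -0.08 in the control and -0.25, -0.25 and -0.87. In WT bone marrow it was -1.51 in the control and -2.56, -1.80 and -1.24, and in HDC-KO bone marrow -1.76 and -3.22, -2.18 and -1.75. In STAT6-KO bone marrow it was -2.12 in the control, -2.11 at 2 weeks and -1.94 at 4 weeks. The spleen controls were highest of their genotype, while in bone marrow the 1 week arrays stood lowest and the 4 week arrays were close to their controls.

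Il6st was below the control on 10 of 14 arrays. The estimate at 1 week in bone marrow was -1.21 (SE 0.18, adjusted p = 0.0623), below the control in 2 of 2 genotypes, and that in spleen at 4 weeks was -1.17 (SE 0.27, adjusted p = 0.428), also in 2 of 2. The first passed the test with quantile normalization (adjusted p = 0.0463), with median scaling (0.0469), among genes well above background on every array (0.0378) and without the STAT6-KO arrays (0.0475). It did not pass in the other 6 of 10 refits, among them normexp (-0.74, adjusted p = 0.186), without WT (-1.36, 0.477) and without HDC-KO (-1.01, 0.404). The fit over all times and both tissues gave -0.53 (SE 0.25, adjusted p = 0.419).

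Il6 had no side of the control common to all times. In WT it was -2.66 in the spleen control and -4.00, -3.35 and -2.64 at 1, 2 and 4 weeks, and -3.02 in the bone marrow control and -5.73, -4.21 and -2.59 after MI. In STAT6-KO it was -4.23 in the spleen control and -3.91, -3.52 and -3.41, and -5.00 in the bone marrow control and -4.16 and -3.94 at 2 and 4 weeks. In HDC-KO it was -3.54, -2.37 and -0.88 in spleen after MI, and -4.04 in the bone marrow control and -4.90, -4.07 and -2.18 after MI. In each genotype and tissue the 4 week array was the highest of those after MI. The 1 week arrays of WT in both tissues and of HDC-KO bone marrow were below their controls. The WT 1 week arrays had the lowest shares of spots well above background, 70.4% in spleen and 71.3% in bone marrow. At 4 weeks the P75 was the lowest of its genotype and tissue in HDC-KO spleen (1177) and STAT6-KO spleen (928). The same held for WT bone marrow (963) and HDC-KO bone marrow (1125), but not for WT spleen (1605) or STAT6-KO bone marrow (1762). The part of either in the Il6 values was not tested.

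The Il6 estimates were -1.63 at 1 week in bone marrow (SE 0.50, adjusted p = 0.166), where the WT value was not well above background, and 1.11 at 4 weeks (SE 0.44, adjusted p = 0.229). In spleen they were -0.78 at 1 week (adjusted p = 0.33) and 0.73 at 4 weeks (adjusted p = 0.668). Over the refits the 1 week estimates ranged from -2.27 to -0.22 in bone marrow and from -1.65 to -0.03 in spleen. Those at 4 weeks ranged from 0.74 to 1.46 in bone marrow and from 0.37 to 1.41 in spleen. None of the Il6 estimates passed the test, and Il6 was above the control on 8 of 14 arrays and below on 6.

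Il10 was above the control on 9 of 14 arrays and below on 5, and its estimates ran from -0.73 at 1 week in spleen (SE 0.45, adjusted p = 0.328) to 0.66 at 1 week in bone marrow (SE 0.38, adjusted p = 0.36). Tnfrsf1b was below the control on 12 of 14 arrays, with differences from -0.90 to 0.24. Its estimate over all times and both tissues was -0.34 (SE 0.15, adjusted p = 0.384). Tnfrsf1a, Il10ra, Il10rb and Il6ra were above the control on 10, 7, 9 and 7 of 14 arrays, and their estimates lay between -0.41 and 0.34. The second Tnfrsf1a probe gave 0.54 at 1 week in spleen (SE 0.24, adjusted p = 0.197), where the first gave -0.10, and 0.61 at 4 weeks in bone marrow (SE 0.19, adjusted p = 0.143), where the first gave 0.18. For these members the arrays after MI thus stood on both sides of the controls.

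**Figure D3:**
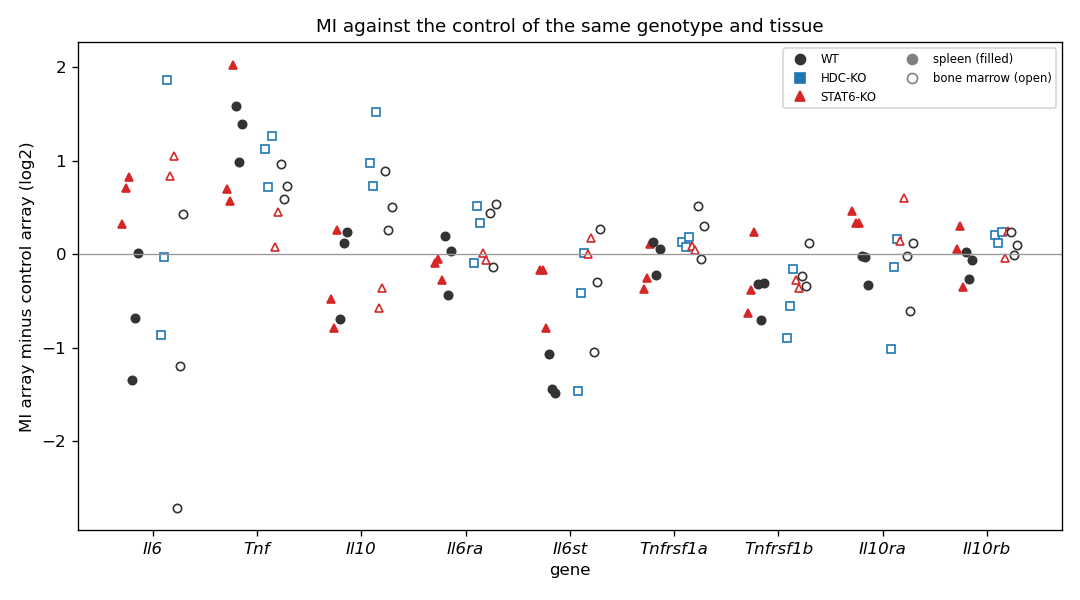
Difference in log2 level between each array after MI and the control array of the same genotype and tissue, by gene, with WT as circles, HDC-KO as squares and STAT6-KO as triangles, filled for spleen and open for bone marrow; HDC-KO spleen has no control and is not drawn. Tnf was above 0 on 14 of 14 arrays, from 0.08 to 2.03, and Tnfrsf1b was below 0 on 12 of 14, with 5 control arrays shared among the 14.

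Markers of other cells differed from the controls in some of these comparisons. At 1 week in spleen 4 of 6 T cell genes were lower, with a list median of -1.39, and 2 of 8 neutrophil granule genes were higher, with a list median of 0.48. At the same time 1 of 6 dendritic cell genes, 1 of 5 NK cell genes and 1 of 7 stromal and endothelial genes were lower, with list medians of 0.11, -0.73 and -0.65. At 2 weeks in spleen 1 of 6 B cell genes was higher and 1 of 6 dendritic cell genes lower, with list medians of 0.87 and -0.25. At 1 week in bone marrow the B cell list had a median of -2.14, with 1 of 6 genes called lower. At 1 and 2 weeks in spleen and at 1 week in bone marrow, 7.9%, 2.25% and 0.148% of all genes were called. With normexp 0 genes were called in these comparisons, so every marker call given here was lost. The part of these markers in the values of the 9 members after MI was not tested.

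The third comparison set each knockout against WT with time as a second term. In spleen limma called 0 of 9 members for STAT6-KO, where 1.95% of genes were called, and 2 members had an unadjusted p under 0.05, as did 22.9% of all genes. For HDC-KO it called 0 of 9, where 2.8% of genes were called, and 1 member was under an unadjusted p of 0.05, as were 22.6% of all genes. In bone marrow it called 0 of 9 for STAT6-KO against 4.61% of genes, and 0 of 9 for HDC-KO against 0.443%, with 3 and 2 members under an unadjusted p of 0.05, as were 22.4% and 21.2% of all genes. The 2 knockouts share the WT arrays. The share of all genes on one side of WT at every matched time was not counted, so such counts below only describe the members.

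Tnf in spleen was lower than WT in both knockouts at each matched time. The STAT6-KO difference was -0.90 (SE 0.26, adjusted p = 0.102, lower at 4 of 4 times), and the HDC-KO difference was -0.95 (SE 0.29, adjusted p = 0.114, lower at 3 of 3 times). In STAT6-KO spleen the gap was smallest at 4 weeks (-0.10). Among WT and HDC-KO arrays alone the HDC-KO difference was -0.97 and passed the test (adjusted p = 0.0225), in a fit that called 9.95% of genes. In the other 12 of 13 refits it did not pass, with differences from -1.11 to -0.64 and adjusted p up to 0.957. In bone marrow the Tnf differences were -0.22 for STAT6-KO (SE 0.18, adjusted p = 0.511) and -0.13 for HDC-KO (SE 0.16, adjusted p = 0.642).

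Il6ra was between 4.07 and 4.35 in the 4 STAT6-KO spleen arrays and between 4.34 and 4.97 in WT spleen, and it was lower at 4 of 4 times (-0.48, SE 0.15, adjusted p = 0.118). In bone marrow it was between 4.34 and 4.42 in STAT6-KO and between 4.49 and 5.16 in WT, lower at 3 of 3 times (-0.45, SE 0.23, adjusted p = 0.295). The STAT6-KO arrays were thus in the lower part of the Il6ra range in both tissues, without passing the test.

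Tnfrsf1b in bone marrow was 0.60, 0.32 and 0.24 in STAT6-KO and between 0.75 and 1.21 in WT (-0.69, SE 0.17, adjusted p = 0.0734, lower at 3 of 3 times). No STAT6-KO array reached the WT range, and the share of all genes without overlap in this comparison was not counted. Il6st was -2.12, -2.11 and -1.94 in STAT6-KO and between -2.56 and -1.24 in WT (-0.57, SE 0.15, adjusted p = 0.0764, lower at 3 of 3). Il10ra was -0.71, -0.57 and -0.11 in STAT6-KO and between -0.31 and 0.41 in WT (-0.74, SE 0.27, adjusted p = 0.162). Il10ra overlapped with WT, and Il6st did so only through WT MI 1 week (-2.56), a time with no STAT6-KO array. None of the 3 passed the test. With median scaling Tnfrsf1b (-0.80, adjusted p = 0.0272) and Il6st (-0.68, 0.037) passed, but that scaling moved the median of all genes by -0.11, which is the whole of the shift in both estimates. Il6st also passed with quantile normalization (0.0338), and Tnfrsf1b among genes well above background on every array (0.0488). Each was called in 2 of 13 refits, over which Il6st ranged from -0.70 to -0.28 (adjusted p up to 0.772) and Tnfrsf1b from -0.82 to -0.55 (up to 0.253). The Il6st value of -0.28 came from the methods' Student test, which has no term for time.

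In HDC-KO bone marrow Il6st was lower than WT at 4 of 4 times (-0.45, SE 0.13, adjusted p = 0.153), whereas in HDC-KO spleen it was higher at 3 of 3 times (0.40, SE 0.22, adjusted p = 0.337). Tnfrsf1b was also lower at 4 of 4 times in HDC-KO bone marrow (-0.39, SE 0.16, adjusted p = 0.221). Il6 in spleen was higher in HDC-KO at 3 of 3 times (0.91, SE 0.40, adjusted p = 0.227) and lower in STAT6-KO at 3 of 4 (-0.60, SE 0.36, adjusted p = 0.351). Over 13 refits the STAT6-KO difference of Il6 in spleen ranged from -0.83 to 0.05 and changed sign in 1. In STAT6-KO bone marrow the Il6 difference was -0.97 (SE 0.42, adjusted p = 0.234). Il10, Tnfrsf1a and Il10rb differed from WT by -0.44 to 0.37 in the knockout comparisons, with adjusted p of 0.239 or more. The second Tnfrsf1a probe was lower than WT in each of the 4, by -0.32 and -0.43 for STAT6-KO in spleen and bone marrow (adjusted p = 0.339 and 0.216) and by -0.33 and -0.34 for HDC-KO (0.394 and 0.269), whereas the first gave 0.01 and 0.02 in bone marrow. The 2 probes thus did not give the same difference. Against WT in spleen, Il10 changed sign in 1 of 13 refits for STAT6-KO (-0.56 to 0.53). For HDC-KO it did so in 3 of 13 (-0.48 to 0.56).

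Cell markers also differed between the genotypes. In STAT6-KO bone marrow 2 of 6 T cell genes, 1 of 5 NK cell genes and 1 of 4 plasma cell genes were called higher and 1 of 6 B cell genes lower, with list medians of 0.10, -0.66, 0.17 and -0.51. In STAT6-KO spleen 1 of 8 neutrophil granule genes and 1 of 7 stromal and endothelial genes were lower, with medians of -0.66 and -0.07, and in HDC-KO bone marrow 1 of 6 T cell genes was higher, with a median of -0.21. For the difference between the tissues in the STAT6-KO effect 1 of 8 neutrophil granule genes was lower, with a median of -1.32. Of all genes 4.61% were called in STAT6-KO bone marrow, 1.95% in STAT6-KO spleen and 0.443% in HDC-KO bone marrow. For the difference between the tissues in the STAT6-KO effect the share was 0.347%. With normexp 0 genes were called lower in STAT6-KO spleen, so both lower marker calls there were lost. The part of these markers in the values of the members was not tested.

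The difference between the tissues in each knockout effect was fitted on the pair differences. limma called 0 of 9 members for STAT6-KO, where 0.347% of genes were called, and 0 of 9 for HDC-KO, where 0.991% were called, and 0 members had an unadjusted p under 0.05 in either, against 13.7% and 14.9% of all genes. For Il6st the HDC-KO effect differed by 0.79 (SE 0.57, adjusted p = 0.585). The knockout effect on Tnf differed between spleen and bone marrow by -0.77 for HDC-KO (SE 0.36, adjusted p = 0.365) and -0.52 for STAT6-KO (SE 0.36, adjusted p = 0.601). For Tnfrsf1b it was 0.66 in STAT6-KO (SE 0.32, adjusted p = 0.406). A difference between the tissues in what the knockouts do to these genes did not pass the test.

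Pearson r between members was taken over the 22 arrays and again with each tissue's mean removed. Tnfrsf1b and Il10ra had an r of 0.94, Il6st and Il10ra 0.90, and Il6st and Tnfrsf1b 0.89. Within tissues these were 0.56, 0.54 and 0.52. Tnf and Il6st had an r of -0.82, or -0.54 within tissues, and Tnf and Tnfrsf1a 0.78, or 0.47 within tissues. Other pairs had an r over the 22 arrays and little within tissues: Tnfrsf1a and Il10ra (-0.75, -0.01 within), Tnf and Tnfrsf1b (-0.68, 0.05 within) and Tnf and Il10ra (-0.66, 0.11 within). Il6st and Tnfrsf1a had -0.77, or -0.29 within tissues, and Tnfrsf1a and Tnfrsf1b -0.67, or 0.34. Il6 and Il10 had an r of 0.48, or 0.42 within tissues, and HDC-KO spleen MI 4 weeks was the highest array for both. The arrays share genotypes, scans and times, so these values describe the 22 arrays.

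Of 16653 genes well above background on at least 11 arrays, those with the highest r to each member over the 22 arrays were found. Ly6c1, a surface protein gene of the Ly6 family, was first for Tnf (r = 0.94, 0.86 within tissues), followed by Ccdc88b (0.93) and H2al1o (0.92). Tnfrsf1b was most like Ly86 (0.98, 0.88 within tissues), which encodes the MD-1 partner of RP105, then Hspb11 (0.98) and Crip1 (0.97). Il10ra was most like Cyp4f16 (0.98, 0.86 within tissues), Batf3, a transcription factor of dendritic cells (0.98), and Calhm2 (0.98). For both of these receptors, and for Tnf, Il6st and Tnfrsf1a, r was lower within tissues, so the likeness includes the difference between the tissues. The highest r among 16653 genes is high partly through the choice itself.

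Il6st was most like Acvr1, an activin receptor gene (0.94, 0.78 within tissues), Mettl21a (0.94) and Sall2 (0.94), and Tnfrsf1a most like Sh2d3c (0.95, 0.85 within tissues), Slc16a3, a lactate transporter gene (0.94), and Itm2b (0.94). Il6 was most like Dusp10, a MAP kinase phosphatase gene (0.87, 0.86 within tissues), Snd1 (0.85) and Katnal1 (0.85). Il6ra was most like Grk5 (0.80, 0.78 within tissues), Fam89b (0.76) and Stat6 (0.75). Stat6 is itself the gene deleted in 7 of these arrays. Il10 was most like 2900057B20Rik (0.82, 0.80 within tissues), 4933411K16Rik (0.81) and Tmem114 (0.80), and Il10rb most like P2ry13 (0.84, 0.87 within tissues), Rabggta (0.83) and Tnfsf14 (0.81).

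Other genes of the pathways were described from fixed lists. Over all genes 54.5% were called between the tissues, and the lists' shares lay on both sides of that. In the IL-6 and gp130 family list, 8 of 20 genes were higher in spleen than in bone marrow and 5 were lower, with a list median of 0.19 against -0.17 for all genes. The higher genes were Cntfr (2.21), Lif (2.02), Il27ra (1.80), Clcf1 (1.36), Il11ra1, Lifr, Cntf and the kinase gene Jak2. The lower genes were Osm (-1.90), Osmr (-1.69), Ebi3 (-1.07), Il11 and Cebpb. Lif and Osm both encode cytokines that signal through gp130, and they stood on opposite sides.

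In the TNF list, 5 of 20 genes were higher in spleen and 3 lower, with a median of 0.16. Lta, which encodes lymphotoxin alpha, had the largest difference (3.59, adjusted p = 7.7e-07), followed by Tnfaip3 (1.29), the gene of the NF-kB inhibitor A20, and Adam17, Ikbkb and Traf2 were the others. Adam17 encodes the protease that releases TNF from the cell surface, and Rhbdf2, which encodes its partner iRhom2, was lower (-0.75), as were Ikbkg and Fadd. In the IL-10 list, 2 of 16 tested genes of 17 were higher and 7 lower, with a median of -0.21. Maf (2.06), a transcription factor gene that promotes Il10 transcription, and Etv3 (0.56) were higher. Ifnlr1 (-2.17), Il22ra1, Il19, Il24, Sbno2, Il20rb and Nfil3 were lower.

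After MI few of the list genes passed the test. Il27, the gene of a subunit of the cytokine IL-27, was lower in spleen at 1 week (-1.29, adjusted p = 0.033) and at 2 weeks (-1.36, adjusted p = 0.0492), and Lta was higher in spleen at 2 weeks (1.5, adjusted p = 0.0305). These were 1 of 20 genes in each case and 0 of 16 in the IL-10 list, against 7.9% of all genes at 1 week and 2.25% at 2 weeks, so the counts say nothing particular of the lists. With normexp the differences were -1.03 and -1.26 for Il27 and 1.45 for Lta, and they were not called (adjusted p = 0.522, 0.852 and 0.567), nor was any other gene at these 2 times. Il27 at 2 weeks was not called with quantile normalization (adjusted p = 0.0535) or median scaling (0.0517) either, while Il27 at 1 week (0.0378 and 0.041) and Lta (0.0408 and 0.0341) were called with both. At 2 weeks in spleen the B cell list had a median of 0.87, with 1 of 6 genes called higher, and its part in the Lta value was not tested. In the fit over all times and both tissues Lifr, the gene of the LIF receptor, was lower (-1.35, adjusted p = 0.0455), where 0.0905% of all genes were called. It was called with normexp (-1.31, 0.0311) and quantile normalization (-1.39, 0.035) and not with median scaling (-1.32, 0.117). In that fit 0 of 20 TNF list genes and 0 of 16 IL-10 list genes passed, with Zfp36 (0.35), Casp8 (0.32), Il22ra2 (-0.56) and Il20rb (0.41) the largest. At 4 weeks in spleen and at each time in bone marrow limma called 0 genes of the 3 lists, where 0% to 0.148% of all genes were called.

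The largest differences that did not pass in spleen were Fadd (0.57) and Casp8 (0.52) of the TNF list and Il22ra2 (-1.25) and Il24 (-1.10) of the IL-10 list at 1 week, and Il24 (-1.27) and Il22ra2 (-1.20) at 2 weeks. At 4 weeks in spleen they were Lifr (-1.88) and Lif (1.19), Tnfaip3 (1.18) and Zfp36 (0.75), and Il22ra2 (-0.61) and Il22ra1 (0.59). Zfp36 encodes tristetraprolin, which binds the Tnf transcript and speeds its decay. In bone marrow at 1 week they were Osmr (-2.45) and Lifr (-1.67), Zfp36 (0.85) and Tnfaip3 (0.63), and Il22 (1.25) and Il24 (0.80). At 2 weeks they were Lifr (-1.05) and Osmr (0.56), Nfkbia (-0.44) and Casp8 (0.35), and Tyk2 (0.37) and Nfil3 (-0.34). At 4 weeks they were Lifr (-1.75) and Osm (1.14), Tnfaip3 (0.82) and Map3k7 (-0.63), and Il20rb (0.78) and Il22 (0.63). Lifr was thus among the largest in each of these bone marrow comparisons and in spleen at 4 weeks, below the control in each.

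Between the genotypes Tyk2, the gene of a JAK kinase that is in both the IL-6 and IL-10 lists, was lower in STAT6-KO bone marrow (-0.75, adjusted p = 0.0295), and Nfkb1 was higher there (0.62, adjusted p = 0.0497). These were 1 of 20, 1 of 16 and 1 of 20 genes of the lists, against 4.61% of all genes. With normexp neither was called (-0.70, adjusted p = 0.0599, and 0.57, 0.0888). With quantile normalization both were (-0.84, 0.0182, and 0.59, 0.0459), and with median scaling Tyk2 was (-0.85, 0.022) and Nfkb1 was not (0.52, 0.127). limma called 0 genes of the 3 lists in the other knockout comparisons and in both comparisons of the knockout effect between the tissues. The largest in STAT6-KO spleen were Cntfr (1.29) and Ctf1 (0.63), Lta (0.51) and Tnip1 (-0.31), and Maf (1.01) and Il24 (-0.85). In HDC-KO spleen they were Lifr (0.82) and Il27ra (0.81), Fadd (-0.37) and Tnip1 (-0.36), and Ifnlr1 (-1.16) and Maf (0.90). In HDC-KO bone marrow they were Lif (-1.06) and Ptpn11 (0.63), Ikbkb (-0.43) and Nfkb1 (0.43), and Il24 (-0.83) and Tyk2 (-0.49). For the difference between the tissues they were Cntfr (0.88) and Il11 (-0.78), Lta (0.98) and Tnfaip3 (0.90), and Il22 (-1.25) and Il24 (-1.12) in STAT6-KO. In HDC-KO they were Il27ra (1.27) and Osmr (1.05), Ikbkb (0.62) and Ripk1 (-0.53), and Ifnlr1 (-1.21) and Tyk2 (0.56).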

How the data were processed

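The members and lists were chosen with earlier results of these data known. CD11b+ cells of each condition were hybridised to 1 one-colour Agilent array, and the authors deposited spot intensity values from Feature Extraction 11.0.1.1, while the submitters' notes name GCRMA. The processed signal, already background-subtracted, was used here. Without control spots, 43020 spots and 39429 probes remained on an array, and RefSeq transcripts gave 27234 of the probes a symbol. 3055 outlier spots were left out and spots of a probe averaged. log2 signals were set against each array's 75th percentile, and genes well above background on at least 2 arrays of a fit were tested with limma 3.58.1 in R 4.3.3, with Benjamini-Hochberg adjustment and a threshold of 0.05. Where a gene had more than 1 probe, the one with the highest mean level was reported. Pairs of the same genotype and time stood as a block between tissues. Within a tissue, genotype and time were additive, and departures from additivity served as error, since no condition was repeated. The scripts were tested on simulated data. The named genes of a pathway list were those past the threshold or otherwise those of largest change. The 2 partial files held 229 and 84 spots and 0 member spots. Between 70.4% and 79.8% of spots were well above background, and the number of arrays limits the precision. No genome build was given for the probes, so no position is printed.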

Additional observations from a re-analysis of the deposited data

Results flagged for a closer look

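For 3 members every array at 1 time after MI stood on one side of its control in spleen and on the other side in bone marrow. By time these were 1 of 9 members at 1 week, 0 of 9 at 2 weeks and 2 of 9 at 4 weeks, against 18.4%, 13% and 4.95% of all genes, and 12.1% with the times together. Il10 at 1 week was below the control by at least -0.48 in 2 of 2 spleen genotypes and above it by at least 0.89 in 2 of 2 bone marrow genotypes. With normexp the Il10 estimate at 1 week in spleen turned to 0.48, from -0.73, so its side of the control depends on the processing. Its spots were dim, with a median spot SD of 0.301 over all arrays but 0.716 in WT and 0.931 in HDC-KO bone marrow control, where 5 and 7 of 10 spots were well above background. Il6st at 4 weeks was below by at least -0.79 in 2 spleen genotypes and above by at least 0.0102 in 3 bone marrow genotypes. Il10rb at 4 weeks was below by at least -0.0562 in 2 spleen genotypes and above by at least 0.0987 in 3 bone marrow genotypes. These differences between the tissues were not tested, each control array is shared by the time points, and the bone marrow value of Il6st and both values of Il10rb were within 0.1 of 0. Over the 10 spleen minus bone marrow differences of each of the 9 members, Dixon's ratio stayed below its critical value at the 0.05 level, so no pair stood apart.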

How the results depend on the processing

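The count of 6 members between the tissues ranged from 5 to 7 over the alternatives, with 6 each time a pair was left out. Il6 dropped out without the pairing, with the scan as a random block and, untested, when genes had to be well above background on every array, and Il10 joined with quantile normalization (0.53, adjusted p = 0.0251). Without the 3 pairs that held the arrays most doubted, chosen after the data were seen, 6 members passed. Those pairs were HDC-KO MI 4 weeks, WT MI 1 week and STAT6-KO MI 4 weeks. They were left out together in the tissue comparison only, so the comparisons after MI and between genotypes include these arrays. Of 119 refits of the 6 called differences 117 kept their call and 0 changed sign. Of 1492 refits of the 120 differences not called, 111 changed sign and 12 were called. In HDC-KO spleen 1 member (Tnf) was called with the 2 genotypes alone (9.95% of all genes). In STAT6-KO bone marrow 1 was called with quantile normalization (5.54%), 2 with median scaling (4.61%) and 1 among genes well above background on every array (6.79%). At 1 week in spleen 1 was called with median scaling (9.18%), and leaving out a genotype gave 0 to 1, with 1 without STAT6-KO (12.8%). At 1 week in bone marrow 1 was called with quantile normalization (0.233%), 1 with median scaling (0.221%) and 1 among genes well above background on every array (0.454%), and leaving out a genotype gave 0 to 1, with 1 without STAT6-KO (1.72%). The other counts were 0 under every alternative run, the methods' Student test included, at its own threshold and after Benjamini-Hochberg. The causes were not tested.

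Scaling moved the split of all called genes, and the median gene by over 0.1 in several comparisons. At 1 week in spleen it was 431 higher and 1661 lower, against 526 and 754 with quantile normalization and 1389 and 1041 with median scaling, which moved the median gene by 0.30, and at 2 weeks it was 53 and 542 against 81 and 203 and 328 and 350. In STAT6-KO bone marrow it was 1078 and 170 against 1025 and 477 and 850 and 399, in HDC-KO spleen 544 and 198 against 222 and 206 and 319 and 286, and in STAT6-KO spleen 177 and 340 against 176 and 200 with quantile normalization. For the HDC-KO difference between tissues it was 213 and 61 against 278 and 240 and 281 and 198. With normexp, run on the median spot signal, 4 genes were higher and 0 lower in STAT6-KO spleen, 4 and 2 in HDC-KO spleen, 461 and 52 in STAT6-KO bone marrow, and 0 and 4 in the STAT6-KO difference between tissues. It called 0 genes in the HDC-KO difference between tissues, at 1 and 2 weeks in spleen and at 1 week in bone marrow, where 40 had been called. No paired analysis by replicate number was possible because each condition has 1 array. Signal over background limits Il10 and Il6 most.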
